A study of Mus musculus with 27 samples.

Results

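The report covers the 4 genes of the panel that sense bacterial lipids at the cell surface, Cd14, Tlr4, Tlr1 and Tlr2, in donor monocyte-derived cells of the mouse small intestine. They were chosen by name, as 4 of the 57 panel genes with values, and all 4 were measured in all 27 samples. Monocytes of C57BL/6 WT donor mice were transferred into C57BL/6 CCR2-/- recipients, which lack the chemokine receptor CCR2 that monocytes use to exit the marrow. In manipulated recipients, surgical handling of the small intestine 1 day ahead of the transfer inflamed it, and non-manipulated recipients had no operation. From each recipient 100 CD64+ cells of donor origin were sorted 1, 2 or 5 days later, and their pre-amplified cDNA was read by nCounter (NanoString), a method that tallies barcoded probes without sequencing. There were 5, 5 and 4 non-manipulated mice at days 1, 2 and 5 and 5, 4 and 4 manipulated ones, with 1 sample per mouse. All groups share the donor genotype and the CCR2-/- recipient. The arms differ in anesthesia, incision and an analgesic (Novalgin) as well as in inflammation, which cannot be told apart here. Ages were not given in the sources used here.

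CD14 is a lipid-anchored co-receptor that takes up lipopolysaccharide of Gram-negative bacteria and hands it to TLR4, the signaling receptor. TLR2 recognizes bacterial lipopeptides as a heterodimer with TLR1 or TLR6. These receptors signal through shared adaptors to NF-kB and induce cytokines and chemokines. Resident macrophages of the gut are known for muted responses to bacterial products, whereas recently recruited monocytes respond strongly.

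A probe of the panel covered 100 bases of each transcript. By the file's own identifiers, these were positions 236 to 335 of the Cd14 transcript, 2511 to 2610 of Tlr4, 806 to 905 of Tlr1 and 256 to 355 of Tlr2. The sequences of the probes and of the pre-amplification primers were not analysed here. Because pre-amplification and probe differ between genes, levels are compared between samples for 1 gene at a time. Levels are given as scaled counts: each count was divided by its own lane's geometric mean of Actb, Gapdh and Rpl19, 3 housekeeping genes, and brought back to the size of a typical lane.

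Depth, as the sum over the 57 genes, was 597997 to 1347010 counts per sample, and the background of a lane, the mean plus 2 SD of its negative controls, from 14.9 to 49.8 counts. The geometric mean of a lane's positive controls was 414 ± 148 (SD, n = 5) in manipulated and 649 ± 95.8 (n = 5) in non-manipulated recipients at day 1. At day 2 these were 503 ± 101 (n = 4) and 695 ± 49.8 (n = 5), and at day 5 they were 761 ± 142 and 840 ± 126 (n = 4 each). Their part in the results was not tested. The values of 12 lanes, those of mice 3 and 4 of every group, carried a common multiplier in the deposited table, and these lanes are called a lane set below, since the labels do not say what they share. The ratio of Actb to Rpl19, both housekeeping genes, was lower in manipulated than in non-manipulated recipients at day 1. It was 32.1 ± 4.09 (SD, n = 5, highest 37.8) against 60.8 (n = 5, lowest 48.4). At day 2 it was 38.2 ± 15.6 (n = 4) against 79.8 ± 35.6 (n = 5), with overlap. At day 5 it was 66.7 ± 21.1 against 64.3 ± 13.8 (n = 4 each). The choice of scaling therefore moves with the groups. Its part in the results was not tested, and other scalings are given beside the results on Cd14 and Tlr4 that they change. Of 9 monocyte and macrophage markers, 8 were above background in all 27 samples (among them Csf1r, Fcgr1 and Spi1), and Ly6c1 was in 22. Between the arms, 3 of the 9 were lower in manipulated recipients at day 1 (Ccr2, Cx3cr1 and Csf1r), 3 at day 2 and 2 at day 5, where 17.5%, 17.5% and 7.02% of the panel were lower, 0 of the 9 were higher, and the others did not pass. Fewer cells of a type and less RNA per cell cannot be told apart, and their part in the results was not tested. Of the markers of other cell types on the lists, the panel held 1 with values, the dendritic cell marker Ccr7, at 699 to 17885 scaled counts. Other cell types could therefore not be examined.

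Manipulated recipients had more Cd14 than non-manipulated ones, and this was the clearest difference among the 4 receptors. At day 1, the non-manipulated samples had 42598, 45138, 79680, 48944 and 32808 scaled counts, and the manipulated samples 89255, 136595, 95057, 83347 and 95533. At day 2, the non-manipulated samples had 57096, 57389, 56728, 54355 and 42252, and the manipulated ones 66231, 81617, 94413 and 101351. At day 5, the non-manipulated samples had 75644, 126692, 52829 and 81551, and the manipulated ones 162527, 184985, 177578 and 176185. Under this scaling, every manipulated sample lay above every non-manipulated sample of its day at each of the 3 days, as it did without Rpl19. With the total as the scaling the arms overlapped at day 1 for Cd14 (lowest manipulated 75935, highest non-manipulated 88028), and with the authors' factor at day 5 (115955 and 129695). Under the housekeeping scaling, every manipulated sample lay above every non-manipulated one for 21.1% of the 57 genes at day 1, 14% at day 2 and 12.3% at day 5. Genes with the manipulated samples all below are not in these shares. Cd14 was the 1 of the 4 receptors for which the arms did not overlap.

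**Figure D1:**
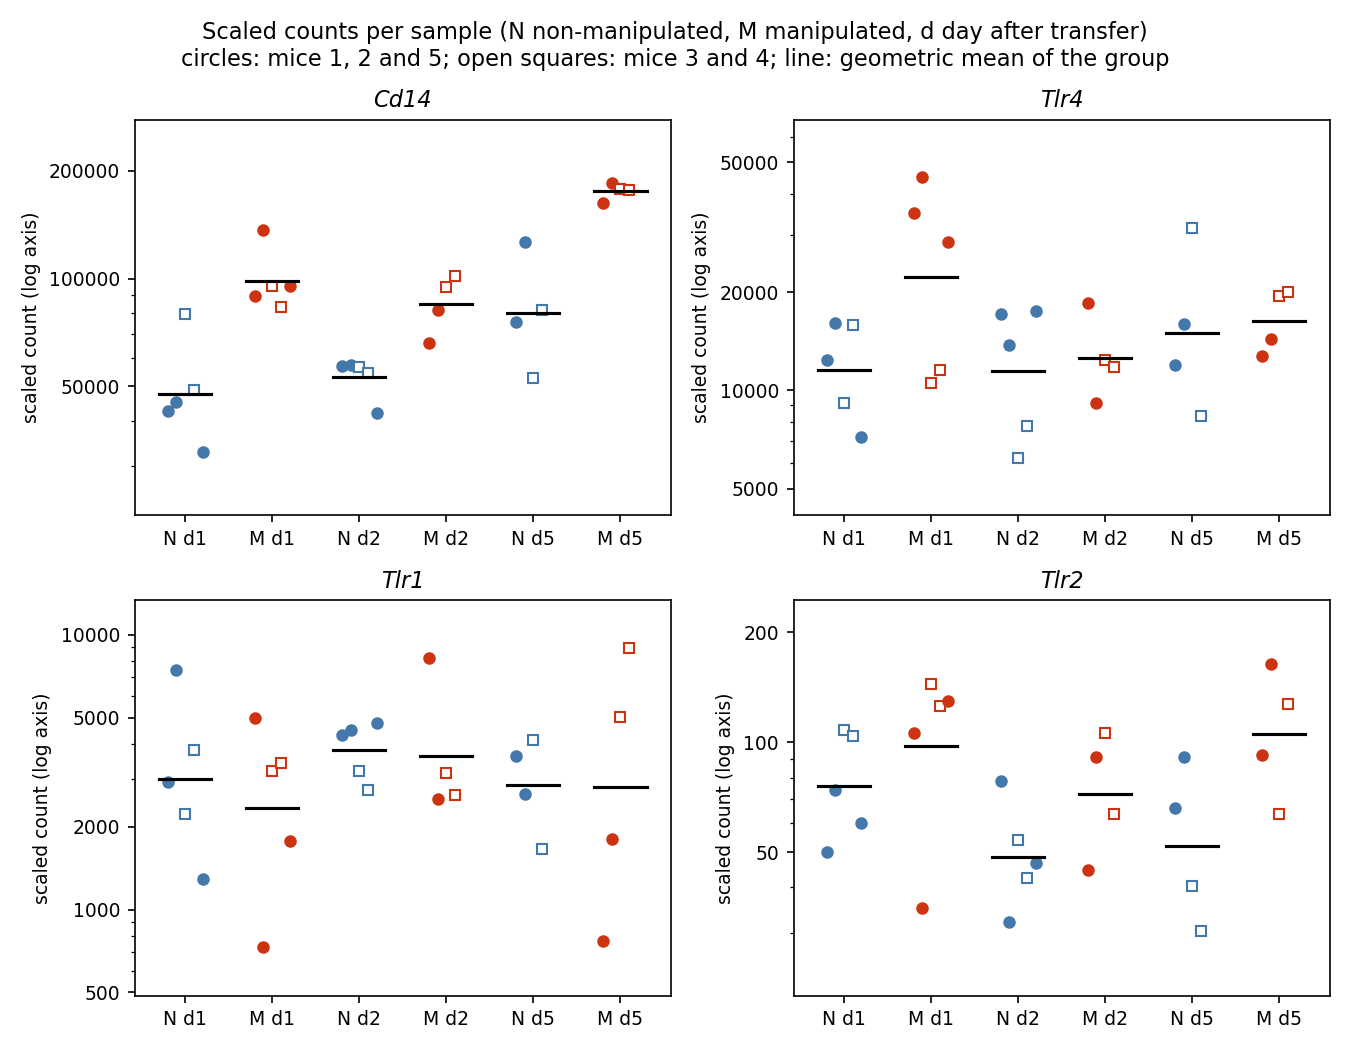
Scaled counts (log axis) of Cd14, Tlr4, Tlr1 and Tlr2 in each sample of the non-manipulated (N, blue) and manipulated (M, red) groups at days 1, 2 and 5, with the geometric mean of each group as a line; open squares are mice 3 and 4. The 4 manipulated samples of day 5 sit between 162527 and 184985 for Cd14, above all other samples under this housekeeping scaling (not under the total or the authors' factor), while the arms overlap at every day for the other 3 genes.

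In the fit across all 57 genes (edgeR quasi-likelihood F test, two-sided, Benjamini-Hochberg adjustment), the log2 fold change of Cd14 was 1.00 ± 0.25 (SE) at day 1, with an adjusted p of 0.00217. At day 5 it was 1.06 ± 0.28 with an adjusted p of 0.0065. At day 2 it was 0.68 ± 0.27 and missed the threshold at an adjusted p of 0.0507. With DESeq2 size factors the day 5 value of Cd14 was 0.79 and did not pass (edgeR adjusted p = 0.0786). At day 2 Cd14 passed without Rpl19 (1.01, edgeR adjusted p = 0.0118) and with the authors' factor (1.20, 0.0312). Of the 4 receptors, 2 rose at day 1 (Cd14 and Tlr4), 0 at day 2 and 1 at day 5 (Cd14), and 0 fell. In the whole panel 24.6% of genes rose and 17.5% fell at day 1, 14% rose and 17.5% fell at day 2, and 17.5% rose and 7.02% fell at day 5.

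Averaged over the 3 days, the effect on Cd14 was 0.91 ± 0.16 with an edgeR adjusted p of 2.38e-05, and that on Tlr2 0.67 ± 0.23 with 0.0137. These 2 of the 4 receptors rose, beside 33.3% of the panel, and 0 fell, beside 22.8%. The average effect on Cd14 passed under all 12 alternative settings of the full sample set, at 0.78 to 1.38, and without any 1 of the 27 samples, at 0.86 to 1.00. Within the lanes of mice 3 and 4 alone it was 0.90 with an edgeR adjusted p of 0.00447, and within the lanes of the other mice 0.90 with 0.00653. The estimates of single days varied more between lane sets for Cd14. At day 1 they were 0.47 ± 0.32 among mice 3 and 4 and 1.41 ± 0.39 among the others, and at day 5 they were 1.40 ± 0.33 and 0.78 ± 0.47. Whether lane sets differ in the effect was not tested.

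**Figure D2:**
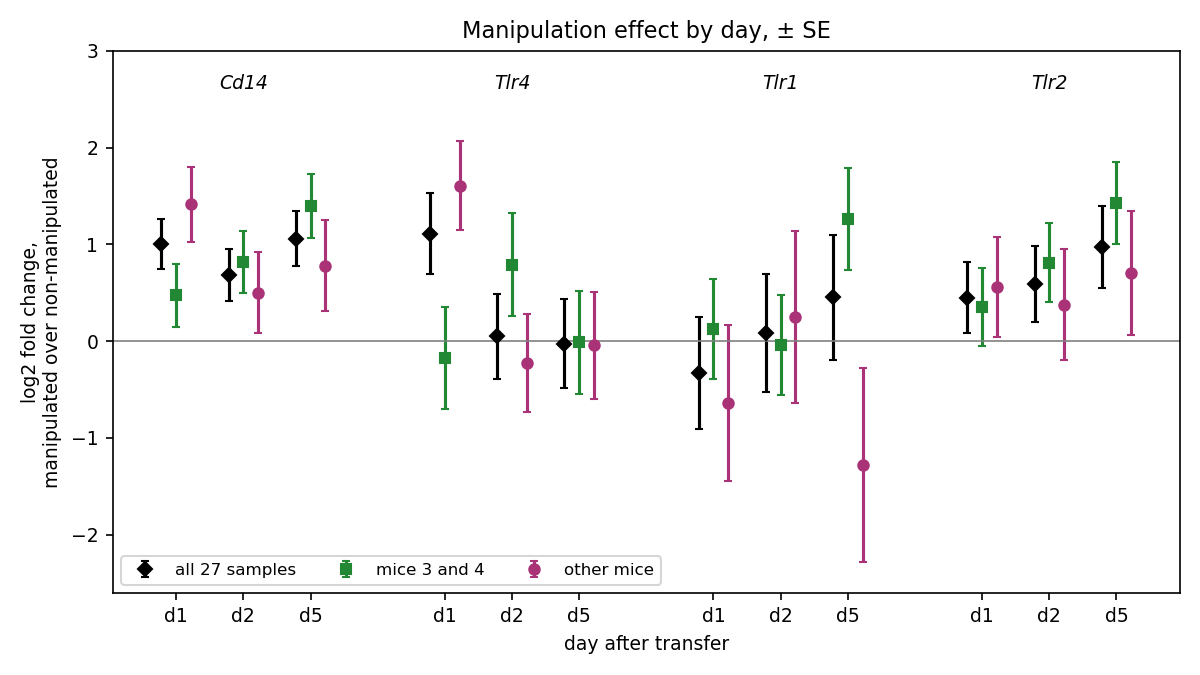
Log2 fold change of manipulated over non-manipulated recipients (y axis, ± SE) of each receptor at days 1, 2 and 5, from all 27 samples (black diamonds), the lanes of mice 3 and 4 (green squares) and the other lanes (purple circles). All 9 estimates of Cd14 are above 0, whereas that of Tlr4 at day 1 is 1.61 in the other lanes and -0.17 among mice 3 and 4.

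Over time and under the housekeeping scaling, Cd14 was highest at day 5 in each arm. From the lowest to the highest group, geometric means ran from 47664 in non-manipulated day 1 through 53219 in non-manipulated day 2, 80160 in non-manipulated day 5, 84806 in manipulated day 2 and 98406 in manipulated day 1 to 175128 in manipulated day 5, a 3.67-fold span. The range of manipulated day 5 lay apart from the next group in this order, and all other neighbors overlapped. With the total as the scaling, manipulated day 5 overlapped manipulated day 1 (lowest 122557, highest 125829), as it did with the authors' factor (115955 and 207066). The spread of Cd14 among the manipulated samples of day 5 also depended on the scaling, with a coefficient of variation of 5.34% under the housekeeping genes, 17.5% under the total and 20.7% under the authors' factor.

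The joint test of the 3 days passed for Cd14 in manipulated recipients (edgeR adjusted p = 0.0135), as the 1 receptor of 4, where 35.1% of the panel passed. It did not pass under the 5 other scalings (0.0811 to 0.663). In non-manipulated recipients it passed for 0 of 4 beside 21.1% of the panel, with an edgeR adjusted p of 0.0744 for Cd14. Between days 1 and 5, Cd14 rose by 0.81 ± 0.27 in manipulated recipients (adjusted p = 0.0172) and by 0.76 ± 0.27 in non-manipulated ones (adjusted p = 0.0457), both from the edgeR fit. It was the 1 receptor of 4 that rose in either arm, and 0 fell, where 22.8% of the panel rose and 17.5% fell in manipulated recipients and 10.5% rose and 8.77% fell in non-manipulated ones. Between days 1 and 2, 0 of the 4 receptors passed in either arm. There 10.5% of the panel rose and 3.51% fell in non-manipulated recipients, and 0% rose and 1.75% fell in manipulated ones.

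The rise of Cd14 in manipulated recipients depended on the scaling. It was 0.61 with TMM factors (adjusted p = 0.085), 0.62 with DESeq2 size factors (0.091), 0.57 with the total of the tested genes (0.071), 0.55 without Rpl19 (0.129) and 0.04 with the authors' factor (0.945), all in edgeR fits. These scalings also move the median of all 57 genes, which was 0.17 under the housekeeping genes and -0.72 under the authors' factor. Measured against that median, Cd14 was higher by 0.59 to 0.77 under all 6 scalings. A scaling shifts all genes of a lane alike, so this distance hardly depends on it and is no test of the rise. In non-manipulated recipients the rise of Cd14 passed in 5 of 13 alternatives and in 8 of the 27 fits that left out 1 sample, so its call rested on single samples and settings. It was 0.27 with the total of the tested genes (edgeR adjusted p = 0.43), 0.67 without Rpl19 (0.0788) and 0.38 with the authors' factor (0.536), and without non-manipulated day 5 mouse 2, the highest of its group, it was 0.49 (0.234). Against the median of all genes it was 0.77 to 1.02 under the 6 scalings, which likewise is no test of the rise.

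**Figure D3:**
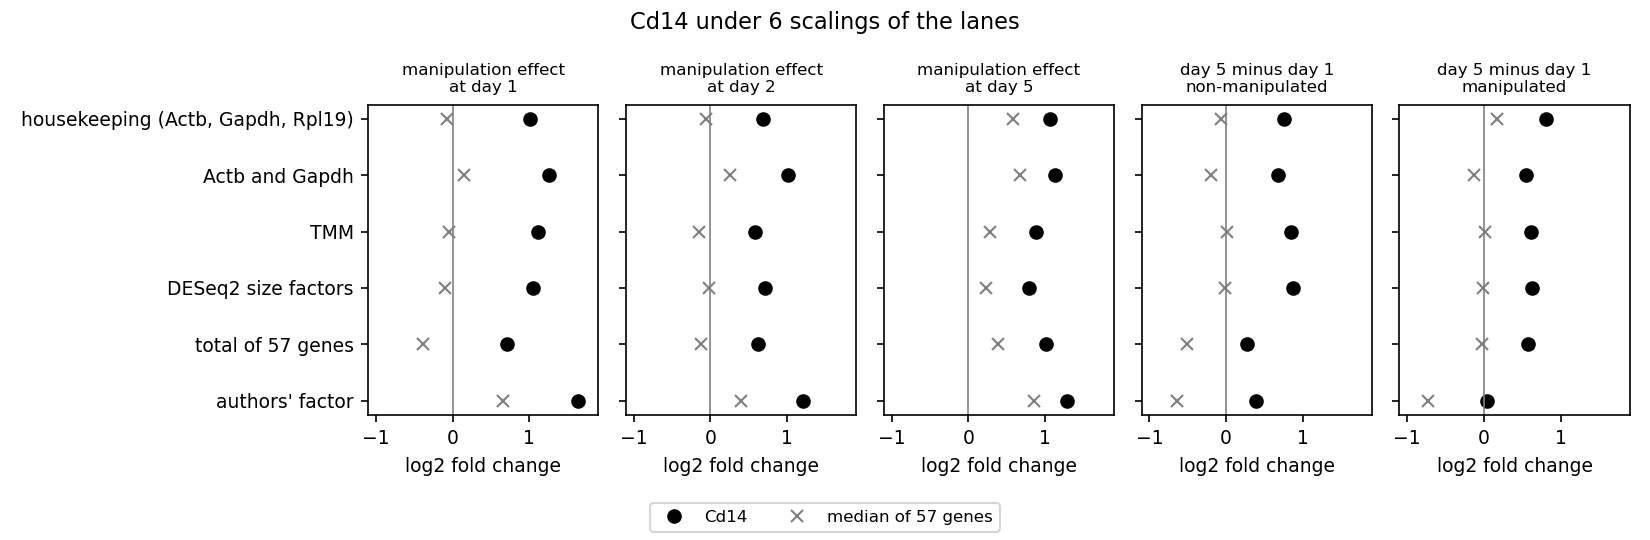
Log2 fold change of Cd14 (black points) and the median of all 57 genes (gray crosses) on the x axis, in 5 comparisons, under the 6 scalings on the y axis. The median moves with the scaling, from -0.38 to 0.66 at day 1, and Cd14 lies 0.97 to 1.16 above it there. For manipulation at day 5 the median runs from 0.23 to 0.85, and Cd14 lies 0.44 to 0.62 above it. A scaling moves Cd14 and the median alike, so this distance is no test of either.

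The manipulation effect on Cd14 did not differ detectably between days 5 and 1, with a difference of 0.05 ± 0.38 on the log2 scale (edgeR adjusted p = 0.951). Measured against the median of all genes, the difference was -0.56 to -0.35 under the 6 scalings, a description and no test. In the edgeR test of the difference 0 of the 4 receptors passed, where 12.3% of the panel passed upward and 7.02% downward. In the joint test of the effect over all 3 days 0 of 4 passed beside 14% of the panel.

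Tlr4, the signaling receptor for lipopolysaccharide, was higher at day 1 in part of the manipulated samples. The non-manipulated samples had 12359, 16071, 9129, 15846 and 7186 scaled counts, and the manipulated samples 34924, 45112, 10557, 11567 and 28470. Under the housekeeping scaling, the manipulated mice 1, 2 and 5 lay above every non-manipulated mouse, and mice 3 and 4 lay within the non-manipulated range. With the authors' factor, manipulated mouse 4 (28092) also lay above the highest non-manipulated sample (23719), and mouse 3 (22996) did not. The fold change was 1.11 ± 0.42 on the log2 scale (edgeR adjusted p = 0.0375). It was 1.61 ± 0.46 in the lanes of the other mice (edgeR adjusted p = 0.0116) and -0.17 ± 0.53 in those of mice 3 and 4 (0.821), with the lane set as a block 1.02 (0.051), and with the total count as the scaling 0.80 (0.153). Leaving out any 1 of non-manipulated day 1 mice 1, 3 and 5 or of manipulated day 1 mice 1, 2 and 5 also ended the call for Tlr4, at 0.82 to 1.12 with edgeR adjusted p-values of 0.058 to 0.119. Under the housekeeping scaling, the low Tlr4 lanes of manipulated day 1 therefore coincide with the lane set. The lane set and the mice cannot be told apart. These 2 lanes also had the lowest positive controls of the 27, with geometric means of 267 and 247 (median of all lanes 653). The part of the positive controls in the results was not tested. Mice 3 and 4 were also the lowest of non-manipulated day 2, but the highest of manipulated day 5.

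At later days the arms overlapped for Tlr4. At day 2 the non-manipulated samples had 17209, 13829, 6219, 7760 and 17554 scaled counts, and the manipulated ones 18495, 9146, 12396 and 11797. At day 5 the values were 11958, 16002, 31489 and 8325 in non-manipulated recipients and 12725, 14415, 19437 and 20004 in manipulated ones. The log2 fold changes were 0.05 ± 0.44 at day 2 (edgeR adjusted p = 0.96) and -0.03 ± 0.46 at day 5 (0.956). The average over the days was 0.38 ± 0.25 (edgeR adjusted p = 0.217). It passed with the scaling without Rpl19 (0.61, 0.0239) and with the authors' factor (0.74, 0.0276), under which the median of all genes was also higher. Between days 5 and 1 the effect on Tlr4 differed by -1.13 ± 0.62 (edgeR adjusted p = 0.217). Geometric means of Tlr4 ran from 11505 in non-manipulated day 2 to 22270 in manipulated day 1, a 1.94-fold span, and all neighbors in the order overlapped.

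The ratio of Cd14 to Tlr4 within a lane does not depend on how lanes are scaled. Its log2 value was 2.04 ± 0.66 (SD, n = 5) in non-manipulated and 2.14 ± 0.81 (n = 5) in manipulated recipients at day 1. At day 2 it was 2.21 ± 0.78 (n = 5) and 2.76 ± 0.62 (n = 4), and at day 5 it was 2.42 ± 1.15 (n = 4) and 3.42 ± 0.30 (n = 4). The differences of manipulated minus non-manipulated were 0.10, 0.55 and 1.00. By exact two-sided permutation tests their p-values were 0.889, 0.27 and 0.0857, and after adjustment over the 9 ratio tests 0.889, 0.476 and 0.476. With 4 against 4 samples, the smallest p an exact test can reach is 0.0286. The arms overlapped at every day, since the lowest manipulated ratio of day 5 was 3.14 and the highest non-manipulated one 3.29.

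Tlr1, which pairs with Tlr2 in sensing triacylated lipopeptides, showed no difference between the arms beyond the spread of its samples. At day 1 its scaled counts were 2917, 7451, 2226, 3816 and 1288 in non-manipulated and 4989, 730, 3183, 3425 and 1775 in manipulated recipients. At day 2 they were 4330, 4523, 3187, 2730 and 4765 against 8258, 2534, 3136 and 2605, and at day 5 they were 3610, 2626, 4130 and 1669 against 767, 1802, 5009 and 8918. The manipulated samples of day 5 spanned the lowest to the highest values of Tlr1 at that day. The log2 fold changes were -0.33 ± 0.58, 0.08 ± 0.61 and 0.45 ± 0.65 at days 1, 2 and 5, with edgeR adjusted p-values of 0.666, 0.96 and 0.607. At day 5 the lane sets gave opposite signs for Tlr1, 1.26 ± 0.52 among mice 3 and 4 and -1.28 ± 1.00 among the others, with edgeR adjusted p-values of 0.0742 and 0.595. Its geometric means spanned 1.63-fold over the 6 groups, from 2342 in manipulated day 1 to 3819 in non-manipulated day 2, with all neighbors overlapping.

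Tlr2 was counted close to background in every group. Its raw counts ran from 14 to 168, between 0.94 and 4.19 times the background of the lane, and 1 sample, non-manipulated day 5 mouse 4, was not above it. At day 1 the scaled counts were 49.9, 73.7, 108, 104 and 60.2 in non-manipulated and 106, 35.1, 145, 125 and 130 in manipulated recipients. At day 2 they were 78.2, 32.2, 53.9, 42.5 and 46.6 against 44.6, 91.0, 106 and 63.7, and at day 5 they were 66.1, 91.3, 40.3 and 30.3 against 92.5, 163, 63.7 and 127. The arms overlapped at every day.

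The log2 fold changes of Tlr2 were 0.45 ± 0.37, 0.59 ± 0.39 and 0.97 ± 0.42 at days 1, 2 and 5, with edgeR adjusted p-values of 0.343, 0.262 and 0.0824. The average over the days, 0.67 ± 0.23, passed under all 11 alternative settings that kept the gene in the full sample set, at 0.50 to 1.16, and without any 1 of the 27 samples. With the mean of the negative controls subtracted it was 0.83 (edgeR adjusted p = 0.0191). Among mice 3 and 4 it was 0.86 (0.0134) and among the others 0.55 (0.214). A fold change of counts this close to background understates the change of the transcript. The within-lane ratios of Tlr2 to Tlr1 and of Tlr4 to Tlr2 did not pass at any day (exact permutation tests, adjusted p of 0.476 to 0.598), with differences of 0.65 to 1.03 and of -0.89 to 0.58 on the log2 scale.

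The 4 receptors did not vary as 1 unit. Over the 27 samples, the Pearson correlation of log2 scaled counts was 0.29 between Cd14 and Tlr4 and -0.05 between their deviations from the group means, 0.43 between Cd14 and Tlr2, and 0.04 between Tlr1 and Tlr2. It was -0.23 between Cd14 and Tlr1 and 0.01 between Tlr4 and Tlr2. Tlr4 and Tlr1 had 0.13, and their deviations were the most alike of any pair, at 0.30 (0.41 with the total as the scaling). These samples share the housekeeping scaling and the groups, so the correlations are descriptions. The panel genes most like Cd14 were the anti-inflammatory cytokine Il10 (r = 0.83), the inflammatory cytokine Tnf (0.72) and the neutrophil-attracting chemokine Cxcl1 (0.71), where the median over the panel was 0.07. Of these, Cxcl1 followed Cd14 between the groups and not within them (-0.01 for the deviations, against 0.41 for Il10 and 0.60 for Tnf). Closest to Tlr1 were the RNA-sensing receptor Tlr8 (0.76), the transcription factor Irf5 (0.72) and the NF-kB subunit Relb (0.71), all of which also followed it within groups (0.78 to 0.82). The panel genes most like Tlr4 were less close to it, with Il6 (0.46), Tlr8 (0.45) and the monocyte-attracting chemokine Ccl2 (0.44) first. For Tlr2 these were VEGFa, a growth factor of vessels (0.53), the lipid receptor Trem2 (0.46) and Ccl2 (0.44). With the total as the scaling, Il10 stayed the most like Cd14 and the 3 genes nearest Tlr1 kept their ranks, but Il6 and Ccl2 ranked 4 and 9 for Tlr4, and Trem2 and Ccl2 ranked 11 and 6 for Tlr2.

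The genes that act with or after these receptors were read from 3 lists. Of 11 adaptors and downstream signaling genes, 5 were measured (Traf6, Nfkb1, Nfkb2, Relb and Irf5), and 0 of them passed at any of the 3 days or in either joint test of the days. Their median log2 fold change was 0.16, -0.10 and 0.44 at days 1, 2 and 5, beside -0.08, -0.05 and 0.59 over all 57 genes. The largest single value was that of Traf6, an adaptor enzyme of the pathway, at day 1 (0.79 ± 0.39, edgeR adjusted p = 0.102).

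Of 13 other pattern recognition genes, 4 were measured. Trem1, a receptor that amplifies Toll-like receptor signals, rose at day 1 by 2.04 ± 0.51 (edgeR adjusted p = 0.00197) and at day 2 by 1.41 ± 0.52 (0.041), and Card9, the adaptor of fungal lectin receptors, fell by 0.95 ± 0.38 at day 1 (0.0464). Trem2 rose by 2.26 ± 0.75 at day 2 (0.0279) and by 3.61 ± 0.86 at day 5 (0.00435, all from edgeR), with group geometric means of 4796 and 14875 scaled counts in manipulated and 1121 and 1288 in non-manipulated recipients. Nod2, a sensor of bacterial cell wall fragments, did not pass at any day. In manipulated recipients all 4 changed between days 1 and 5, Trem1 and Nod2 downward (-3.14 ± 0.58 and -1.47 ± 0.46) and Trem2 and Card9 upward (2.91 ± 0.77 and 1.25 ± 0.39), with edgeR adjusted p-values of 0.000268 to 0.0136, where 22.8% of the panel rose and 17.5% fell. In non-manipulated recipients 1 of the 4 changed, Trem1 by -1.59 ± 0.54 (0.0457), where 10.5% of the panel rose and 8.77% fell.

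A list of 13 genes that Toll-like receptors are known to induce held cytokines, chemokines and the enzyme gene Nos2, which was left blank. Of these, 10 were measured, all cytokines or chemokines. At day 1, 9 of them rose, at day 2, 5 rose and at day 5, 3 rose, where 24.6%, 14% and 17.5% of the panel rose, and 0 of the 10 fell at any of these days. Their median log2 fold change was 3.35, 1.33 and 1.37 at the 3 days, beside -0.08, -0.05 and 0.59 over all 57 genes. The largest changes at day 1 were those of Ccl7, a monocyte-attracting chemokine (7.02 ± 0.93, edgeR adjusted p = 7.28e-07), Il6 (5.12 ± 0.67, 7.28e-07) and Il23a, a subunit of interleukin-23 (4.78 ± 1.11, 0.00136). Those of Ccl7, Cxcl1 and Ccl2 led at day 2 (3.03 ± 0.79, 3.02 ± 0.45 and 1.97 ± 0.37), and those of Cxcl1, Il1a and Ccl2 at day 5 (2.72 ± 0.48, 2.68 ± 0.44 and 1.55 ± 0.39). The chemokine Cxcl10 did not pass at any of these days (-0.83 ± 0.60 at day 1). Averaged over the 3 days, all 10 passed, 9 of them higher and 1 lower in manipulated recipients, where 33.3% of the panel rose and 22.8% fell.

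Of the 10 cytokines and chemokines, 1 rose and 3 fell between days 1 and 5 in manipulated recipients, where 22.8% of the panel rose and 17.5% fell. Il6 fell by 4.20 ± 0.70 (edgeR adjusted p = 0.000176), Il1b by 1.21 ± 0.42 (0.0211) and Ccl2 by 1.04 ± 0.37 (0.0248), and Il10 rose by 1.79 ± 0.43 (0.0032). The joint test of the 3 days in manipulated recipients passed for Il6 (9.07e-05) and Il10 (0.00519) of the cytokine list. In non-manipulated recipients it passed for 5 of the 10, with Il10 (0.000184), Ccl7 (0.000222) and Il1a (0.000222) first, and Il10 rose there by 2.64 ± 0.44 between days 1 and 5 (7.07e-05).

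**Figure D4:**
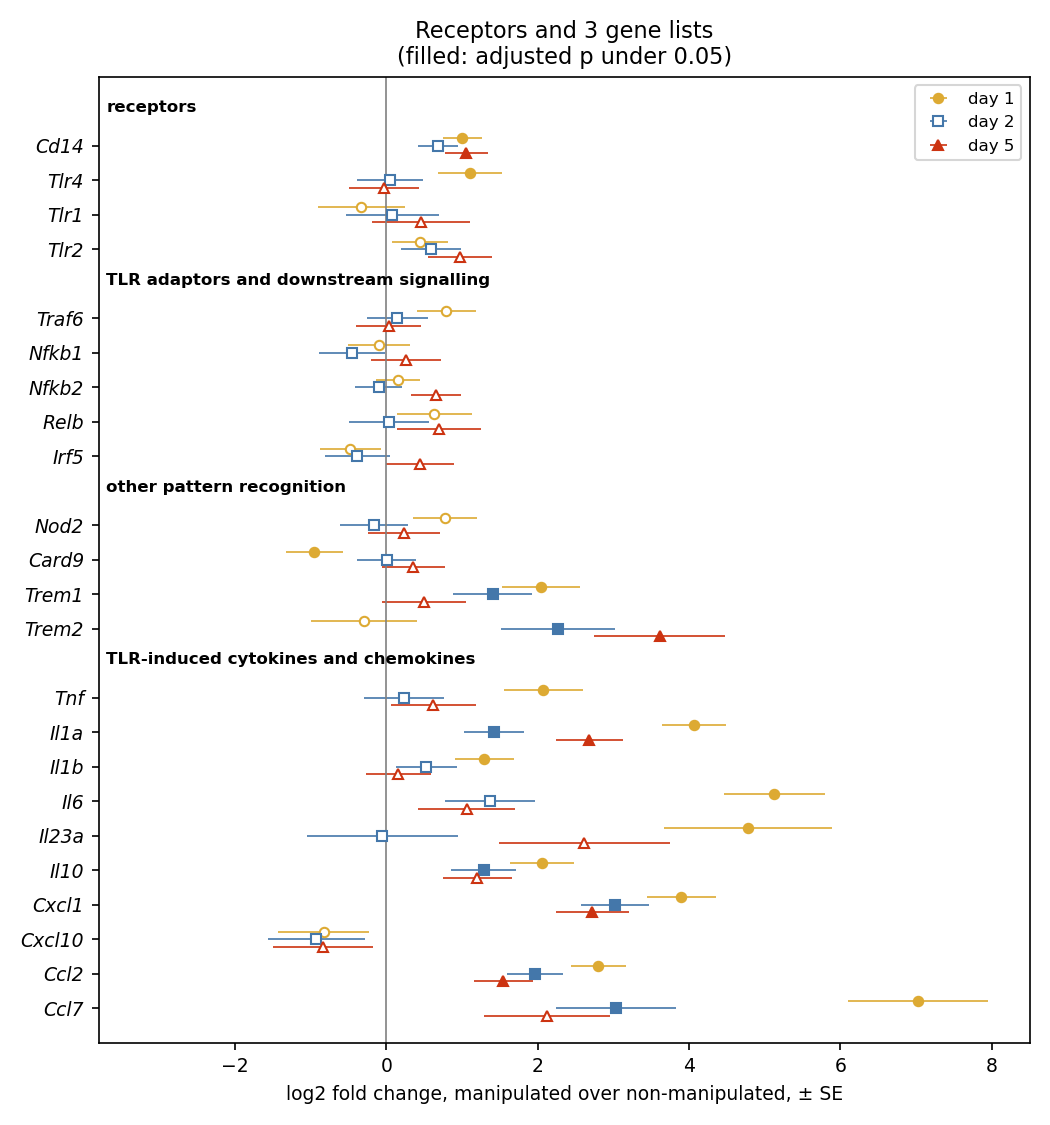
Log2 fold change of manipulated over non-manipulated recipients (x axis, ± SE) of the 4 receptors and the measured genes of the 3 lists at day 1 (circles), day 2 (squares) and day 5 (triangles), filled where the adjusted p is under 0.05. Of the 10 cytokines and chemokines 9, 5 and 3 are filled at days 1, 2 and 5, while 0 of the 5 downstream signaling genes are.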

How the data were processed

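Donor monocyte-derived cells of 27 recipients were measured with 1 nCounter lane each, after 16 cycles of pre-amplification. In the raw table, 15 lanes held counts as deposited by the authors (in manipulated day 1 mouse 5 all were multiples of 2), and the 12 lanes of mice 3 and 4 held expected counts as deposited, whole multiples of 1.333 within 0.001. Multipliers were divided out. The second deposited table held a score, which by the study's methods the authors had normalized to housekeeping genes, and it served as the authors' factor (score over raw value). In a joint fit this factor also followed the positive controls of the lane, with a coefficient of -1.02. Those of Actb, Gapdh and Rpl19 were -0.28, -0.26 and -0.43. Of 67 panel genes, 10 were left blank by the authors, and 57 were tested. Of 72 identifiers, 69 matched a symbol of GRCm38.p6.

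Counts were fitted with edgeR 4.0.16 (quasi-likelihood F test) in R 4.3.3, with the geometric mean of Actb, Gapdh and Rpl19 as library size, 6 group means, 21 residual degrees of freedom and Benjamini-Hochberg adjustment over 57 genes, at a threshold of 0.05. Alternatives were other scalings, DESeq2 1.42.0, limma 3.58.1 on log2 of the scaled count plus 1, filters, blocks, the 2 lane sets and each sample left out. The fitting was tested on simulated data with planted changes larger than those of the receptors, so the simulation does not speak to calls of that size. Ratios within a lane were compared by exact permutation tests. Named genes were the 4 receptors, for each the 3 panel genes with the highest Pearson correlation, and up to 3 genes per list and comparison with the largest change (in joint tests the smallest p) among those that passed; genes outside this rule (the others with values among the signaling, recognition and cytokine lists, and the markers) were named after their values were seen. The members and gene lists were chosen with earlier results of these data known. Groups came from titles and the day given among the characteristics, because the descriptions name day 1 for every sample. No 2 lanes of a group were alike within sampling noise (chi-square per degree of freedom at least 216). Mice 3 and 4 were the closest pair of each manipulated group, at 637, 216 and 848 at days 1, 2 and 5. They were also the closest of non-manipulated day 1 (985), but not of non-manipulated days 2 and 5. Mice came from pooled experiments, which the labels do not assign to samples. The p-values measure the spread between these mice, taken as independent.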

Additional observations from a re-analysis of the deposited data

Results flagged for a closer look

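A sample stood apart from its group in 3 of the 24 combinations of receptor and group that were examined. Chance sets about 1 in 20 groups apart in this way. The Cd14 level of non-manipulated day 2 mouse 5 was 42252 scaled counts, below the 54355 to 57389 of the other 4. That of manipulated day 1 mouse 2 was 136595, above the 83347 to 95533 of the others. The Tlr1 level of manipulated day 2 mouse 1 was 8258, above 2534 to 3136 in the other 3. Without these samples in turn, the log2 fold change of Cd14 was 0.61 at day 2 and 0.87 at day 1, and that of Tlr1 was -0.50 at day 2.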

How the results depend on the processing

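The number of the 4 receptors that passed was compared over the alternatives. At day 1 it was 2, and it was 1 with the total as scaling, limma, the replicate block, the lane set as a block or only the compared groups in the fit, 0 among mice 3 and 4, and 1 to 2 with a sample left out. Tlr4 turned direction among mice 3 and 4, at -0.17. At day 2 it was 0, and 1 without Rpl19, with the authors' factor, the DESeq2 test or the negative-control mean subtracted (0 to 1 with a sample left out). At day 5 it was 1, and 0 with DESeq2 size factors, among the other mice or with only the compared groups, and 2 among mice 3 and 4 (1 to 2 with a sample left out). The average of the days gave 2, and 1 among the other mice or when genes not above background everywhere, Tlr2 among them, were left out. The joint test of the days in non-manipulated recipients gave 0, and 1 with the DESeq2 test or among mice 3 and 4 (0 to 1 with a sample left out). In manipulated recipients it gave 1, and 0 with TMM, DESeq2 size factors, the total, no Rpl19, the authors' factor or within either lane set. Day 5 minus day 1 gave 1 in each arm. In non-manipulated recipients it was 0 with the total, no Rpl19, the authors' factor, limma, genes above background only, either block or only the compared groups (0 to 1 with a sample left out), and in manipulated ones 0 with TMM, DESeq2 size factors, the total, no Rpl19, the authors' factor or among the other mice. The causes of these changes, scaling among them, were not tested.

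Over the whole panel, the number of the 57 genes that passed ranged over the alternatives from 14 to 27 at day 1 (24 as reported), 3 to 24 at day 2 (18), 7 to 24 at day 5 (14), 7 to 20 and 10 to 23 in the joint tests of non-manipulated (12) and manipulated (20) recipients, 4 to 10 and 0 to 5 between days 1 and 2 (8 and 1), 7 to 19 and 12 to 24 between days 1 and 5 (11 and 23), 5 to 16 for the difference of effects (11) and 3 to 12 for the joint interaction (8). Leaving out 1 sample gave 8 at the least at day 2. The share of higher genes among those that passed moved with the scaling, at day 1 from 58.3% to 48.1% with the total, 73.9% without Rpl19 and 81.0% with the authors' factor, and at day 5 from 71.4% to 91.7% with the authors' factor. The labels do not say whether mouse numbers pair the samples, and the reported fit does not pair them. Same-numbered samples of other groups had deviations correlated at 0.0678 on average over 63 pairs, 30 of them over 0.1. For other-numbered samples it was -0.0185 over 240 pairs, 82 of them over 0.1. Whether these differ was not tested. With the replicate block, Tlr4 at day 1 was 1.01 (adjusted p = 0.0735 from edgeR) and Cd14 from day 1 to 5 in non-manipulated recipients 0.69 (0.0806). For the average of the days and the joint interaction, the fit of only the compared groups is the fit reported. The sides of the threshold of all 9 ratio tests held under every alternative run. A ratio alone at its smallest possible p could not have passed after adjustment, so this is no support for the misses. Tlr2, near background, and the 4 or 5 mice per group limit what can be detected.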
